A study of Mus musculus with 8 samples.

Results

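CTCF, cohesin and the proteins that load cohesin onto DNA were followed through 10 transcripts: Ctcf, the cohesin subunit genes Rad21, Smc1a, Smc3, Stag1 and Stag2, the accessory subunit genes Pds5a and Pds5b, and the loader genes Nipbl and Mau2. The members were a fixed list of symbols, matched to the 24411 symbols of the count tables, and all 10 were found there and passed the filter on low counts, which left 13506 genes. Polyadenylated RNA was sequenced from 8 mouse hearts of the C57BL/6 strain, taken 1 week after transverse aortic constriction, a narrowing of the aorta that raises the pressure load on the left ventricle. In 4 of them, the cardiac-specific YY1 KO mice, the transcription factor Yin-Yang 1 had been deleted, and the other 4 were MerCreMer control mice, named for a ligand-inducible form of the Cre recombinase. Both groups had been operated on, so every comparison is between genotypes in the loaded heart, and the sources used here state neither the age of the mice nor the promoter that drives Cre nor how it was induced. The comparison asks how the transcripts of other chromatin looping factors stood in hearts with this deletion.

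The design states that all mice were male, but 4 of the 8 libraries did not match it. YY1 KO 1 and 4 and controls 1 and 4 held 2156 to 3512 reads of Xist, the RNA of the inactive X chromosome, and 0 to 2 reads of 4 Y-linked genes, while YY1 KO 2 and 3 and controls 2 and 3 held 0 to 6 Xist reads and 2519 to 3018 Y-linked reads. Each genotype therefore has 2 libraries of each kind, and results are also given for the 2 kinds apart. The libraries held 14582605 to 16000455 reads assigned to genes. The targeted gene Yy1 stood at 18.03, 22.3, 19.9 and 23.8 CPM (read counts scaled to a common library size) in YY1 KO hearts and at 33.8, 37.1, 36.3 and 37.1 CPM in control hearts (58.3% of control; log2 fold change −0.78 ± 0.10, SE; edgeR quasi-likelihood test with Benjamini-Hochberg adjustment, adjusted p = 0.000769). Of all genes tested, 38.9% were called at an adjusted p under 0.05, 21.6% higher and 17.3% lower in YY1 KO hearts.

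Cohesin is a ring built from SMC1A, SMC3 and RAD21 with either STAG1 or STAG2 attached. NIPBL with its partner MAU2 loads the ring and drives it to extrude loops of DNA, which stop where the zinc finger protein CTCF is bound. PDS5A and PDS5B bind the ring through RAD21 and act on both sides of its stay on DNA, as partners of the releasing factor WAPL and of the enzymes that acetylate SMC3 and stabilise the ring. YY1 itself also links enhancers and promoters. In the mouse, loss of Ctcf in cardiomyocytes leads to heart failure, and partial loss of Nipbl gives heart defects at birth.

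In the YY1 KO hearts 4 of the 10 members fell and 0 rose. The PDS5 paralogue gene Pds5b fell to 44.4% of its control level, and Stag1, Pds5a and Rad21 fell to between 76.6 and 81.3%. The transcripts for CTCF, the SMC pair, STAG2 and both loader proteins were not called. The share called lower was 40.0% of the members, against the 17.3% of all tested genes given above, and the median log2 fold change of the members was −0.13, against 0.01 over all tested genes. By edgeR 0 members were higher at an unadjusted p under 0.05, which 6576 of all 13506 tested genes passed in either direction. DESeq2 and limma-voom also gave 4 lower and 0 higher members. The count of lower members was 2 with scaling by library size alone, 2 in the libraries with Y-linked reads alone and 0 in those with Xist reads alone. Whole hearts were sequenced, so fewer cells of a type and less RNA per cell cannot be told apart.

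**Figure D1:**
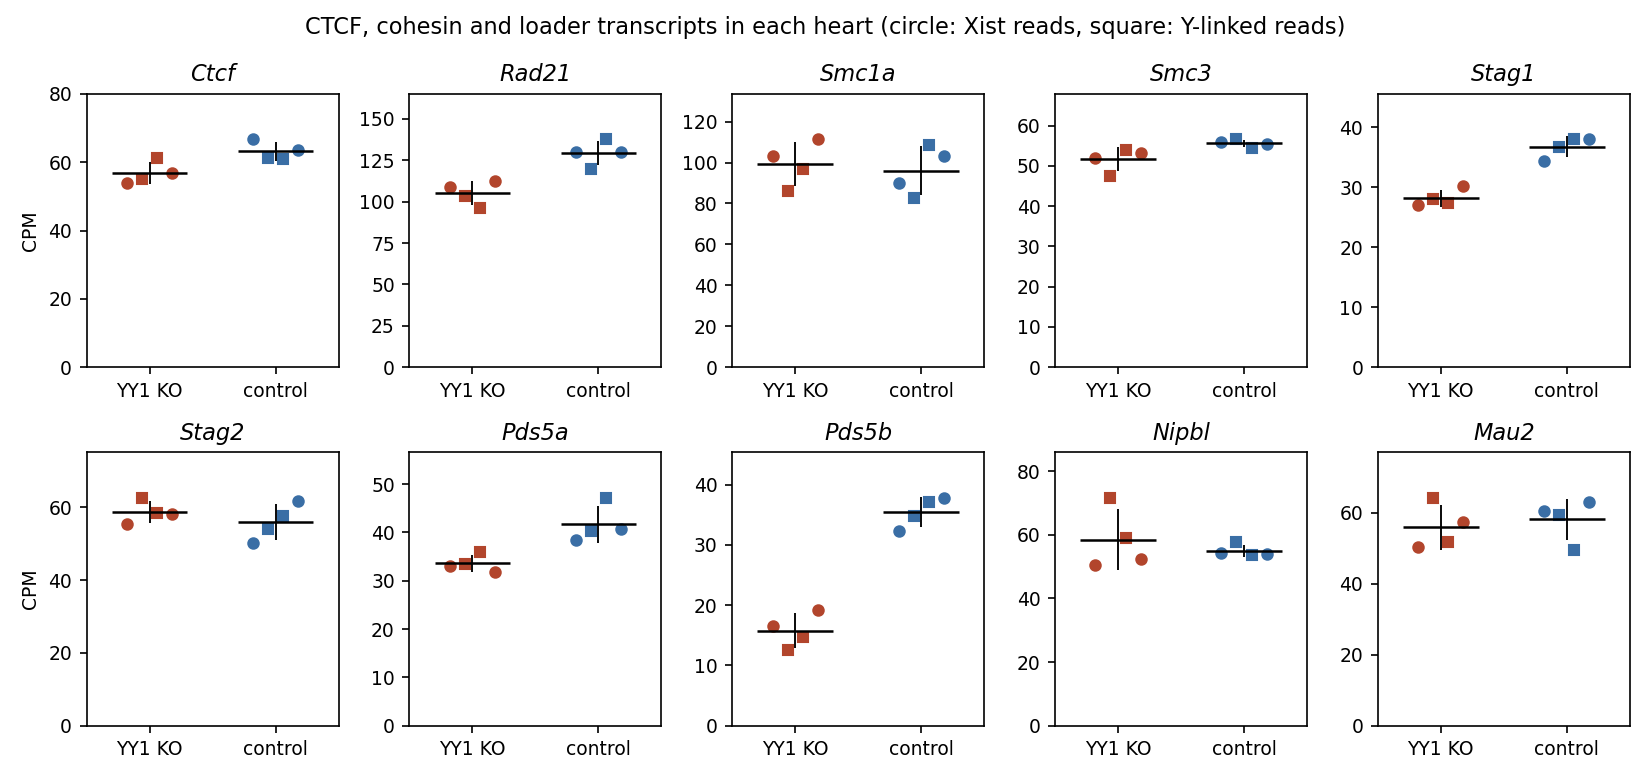
Level of each of the 10 transcripts (CPM, vertical axes from 0) in the 4 YY1 KO hearts and the 4 control hearts; each point is 1 library, circles hold Xist reads and squares Y-linked reads, horizontal lines are means and vertical bars ± SD. The groups stand apart for Pds5b, Stag1, Pds5a, Rad21 and, narrowly, Smc3.

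The 2 genes for PDS5 proteins both fell. Pds5b (mm10 chromosome 5, 150673739 to 150810690, plus strand) stood at 16.6, 12.5, 14.7 and 19.3 CPM in the YY1 KO hearts and at 32.4, 34.7, 37.2 and 37.9 CPM in the control hearts. The highest YY1 KO heart lay well below the lowest control heart. Its log2 fold change was −1.17 ± 0.13 (SE; 95% interval −1.47 to −0.87; edgeR adjusted p = 0.000461), and 4.33% of the tested genes had a lower one. Pds5a, on the same chromosome (65605721 to 65698273, minus strand), stood at 33.2, 33.5, 36.0 and 31.8 CPM in YY1 KO hearts and at 38.4, 40.3, 47.2 and 40.8 CPM in control hearts. These groups did not overlap either, but the gap between them was narrow (log2 fold change −0.31 ± 0.088, 95% interval −0.51 to −0.11, edgeR adjusted p = 0.0216). That call was lost in 4 of 20 alternatives, among them leaving out YY1 KO 1 (adjusted p = 0.0528), scaling by library size alone (adjusted p = 0.0776) and each kind of library alone.

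The promoter windows of these genes are shown because they let the letters of the deleted factor's motif be read beside the size of the fall. They run from 250 bases before to 50 bases after the transcript start (RefSeq, GRCm38.p6, the build of mm10), and capitals mark the letters AANATGGC of the YY1 motif and the letters of the CTCF core motif, each searched on both strands; the matches do not overlap. The windows lie at chr5:150673577-150673876 (plus strand) for Pds5b, chr5:65698187-65698486 (minus) for Pds5a and chr8:105636288-105636587 (plus) for Ctcf. That of Stag1, at chr9:100643198-100643497 (plus), lies at a start far inside the annotated gene, which begins at 100597798.
Pds5b: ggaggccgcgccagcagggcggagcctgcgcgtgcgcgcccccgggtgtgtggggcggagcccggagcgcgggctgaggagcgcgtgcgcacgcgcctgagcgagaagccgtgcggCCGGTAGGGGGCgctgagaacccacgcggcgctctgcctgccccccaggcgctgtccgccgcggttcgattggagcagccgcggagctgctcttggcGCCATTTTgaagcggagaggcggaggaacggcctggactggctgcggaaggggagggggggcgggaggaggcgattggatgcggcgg
Pds5a: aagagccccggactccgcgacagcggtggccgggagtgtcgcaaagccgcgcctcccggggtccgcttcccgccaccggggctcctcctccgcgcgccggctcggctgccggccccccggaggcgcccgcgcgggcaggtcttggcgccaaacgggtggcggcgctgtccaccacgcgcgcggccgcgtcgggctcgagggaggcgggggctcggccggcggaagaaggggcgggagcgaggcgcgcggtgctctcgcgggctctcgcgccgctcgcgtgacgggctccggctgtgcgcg
Stag1: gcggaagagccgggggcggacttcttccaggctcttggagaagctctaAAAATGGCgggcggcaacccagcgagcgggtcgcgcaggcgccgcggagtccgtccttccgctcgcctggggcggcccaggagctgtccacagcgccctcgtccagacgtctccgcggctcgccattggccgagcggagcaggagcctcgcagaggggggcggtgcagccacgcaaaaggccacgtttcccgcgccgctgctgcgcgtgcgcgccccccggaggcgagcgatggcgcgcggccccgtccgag
Ctcf: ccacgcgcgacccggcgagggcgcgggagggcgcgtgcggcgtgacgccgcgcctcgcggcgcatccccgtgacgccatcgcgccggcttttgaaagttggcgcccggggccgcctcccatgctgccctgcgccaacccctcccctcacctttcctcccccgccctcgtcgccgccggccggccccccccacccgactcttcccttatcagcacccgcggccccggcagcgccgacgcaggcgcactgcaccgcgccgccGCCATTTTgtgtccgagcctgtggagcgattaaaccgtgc

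The window of Pds5b holds the YY1 letters on the opposite strand, beginning 37 bases before the start, and the CTCF core on the same strand, beginning 134 bases before it. That of Pds5a holds neither. The YY1 letters stand 202 bases before the start in the window of Stag1, and just past the start in those of Ctcf and Smc3. Of 32851 RefSeq windows of this length, 6.05% hold the YY1 letters and 8.61% the CTCF core. Windows were given for 7 members (all but Rad21, Stag2 and Nipbl), of which 4 hold the YY1 letters and 1 the CTCF core. Of these 4, Pds5b and Stag1 fell and Ctcf and Smc3 were not called. A match of letters is a description of the sequence and not a bound site.

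Of the 2 STAG genes, of which a cohesin ring carries 1 product, Stag1 fell and Stag2 was not called. Stag1 (chromosome 9, 100597798 to 100959375, plus strand) had 27.0, 28.1, 27.4 and 30.2 CPM in YY1 KO hearts and 34.3, 36.8, 38.0 and 38.0 CPM in control hearts. The groups did not overlap (log2 fold change −0.38 ± 0.077, 95% interval −0.56 to −0.21, edgeR adjusted p = 0.00477). Stag2 (X chromosome, 42149317 to 42277185, plus strand) had 55.5, 62.7, 58.5 and 58.1 CPM in YY1 KO hearts and 50.3, 54.0, 57.6 and 61.9 CPM in control hearts. Here the control hearts spanned nearly the whole range of the YY1 KO hearts, and the 95% interval of the log2 fold change ran from −0.12 to 0.26 (0.07 ± 0.084, edgeR adjusted p = 0.541).

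Of the ring itself, the transcript of the kleisin RAD21, which closes it and is the part cut by separase at cell division, was lower. Rad21 (chromosome 15, 51962240 to 51991747, minus strand) had 109, 103, 96.2 and 112 CPM in YY1 KO hearts and 130.1, 119.7, 138 and 130.3 CPM in control hearts. Every YY1 KO heart lay below every control heart, at a log2 fold change of −0.30 ± 0.083 (95% interval −0.49 to −0.11, edgeR adjusted p = 0.0191). The call was lost in 5 of 20 alternatives, among them leaving out YY1 KO 3 (adjusted p = 0.0637), library size alone (adjusted p = 0.0855) and each kind of library alone. Smc3 (chromosome 19, 53600398 to 53645833, plus strand) had 52.0, 47.4, 54.0 and 53.2 CPM in YY1 KO hearts and 55.9, 56.6, 54.3 and 55.4 CPM in control hearts. The groups did not overlap, by a gap smaller than the spread within either, and the difference was not called (log2 fold change −0.10 ± 0.070, 95% interval −0.26 to 0.05, edgeR adjusted p = 0.259). Its partner Smc1a (X chromosome, 152016428 to 152062694, plus strand) had 103.1, 86.0, 96.9 and 111 CPM in YY1 KO hearts and 89.9, 82.7, 108 and 103.3 CPM in control hearts. These ranges overlapped almost wholly (log2 fold change 0.05 ± 0.11, 95% interval −0.21 to 0.31, edgeR adjusted p = 0.762). In all, 5 members stood lower without overlap between the groups and 0 stood higher. Of all tested genes, 38.3% had groups that did not overlap, 16.5% lower and 21.8% higher in YY1 KO hearts.

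Ctcf (chromosome 8, 105636568 to 105682922, plus strand), which encodes the protein that sets loop ends, was not called. It had 54.0, 55.2, 61.2 and 56.9 CPM in YY1 KO hearts and 66.8, 61.1, 61.1 and 63.6 CPM in control hearts. YY1 KO 3 reached the lowest control hearts, and the other YY1 KO hearts lay below all of them (log2 fold change −0.15 ± 0.073, 95% interval −0.32 to 0.01, edgeR adjusted p = 0.127). Ctcf shares 114 exonic bases with Agrp and 370 with a long non-coding RNA on the opposite strand, and 4.51% of its strand-resolved reads lay on that strand. In counts of the sense strand the log2 fold change was −0.16 (adjusted p = 0.107). Tested genes, leaving out predicted-gene and clone names, were ranked by Pearson correlation of log2 CPM with Ctcf over the 8 libraries. The 5 highest were Rbm10 (r = 0.97), Spag4 (r = 0.95, with only 6 to 15 reads in a library), Hacd3 (r = 0.95), Irf2bp2 (r = 0.94) and Nt5dc3 (r = 0.94). The points share their libraries and the split by genotype, and 4 of these genes were called lower in YY1 KO hearts themselves.

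The loader genes were not called. Nipbl (chromosome 15, 8290617 to 8444463, minus strand) had 50.5, 71.7, 59.1 and 52.3 CPM in YY1 KO hearts and 54.3, 57.8, 53.8 and 54.1 CPM in control hearts. YY1 KO 2 was far above all others, and without it the sign of the log2 fold change turned, at −0.03 against 0.09 ± 0.11 with it (95% interval −0.17 to 0.34, edgeR adjusted p = 0.568). Mau2 (chromosome 8, 70016123 to 70042734, minus strand) had 50.4, 64.3, 51.7 and 57.5 CPM in YY1 KO hearts and 60.6, 59.3, 49.7 and 63.1 CPM in control hearts. The hearts of both genotypes were spread over the same range (log2 fold change −0.06 ± 0.11, 95% interval −0.30 to 0.19, edgeR adjusted p = 0.704).

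**Figure D2:**
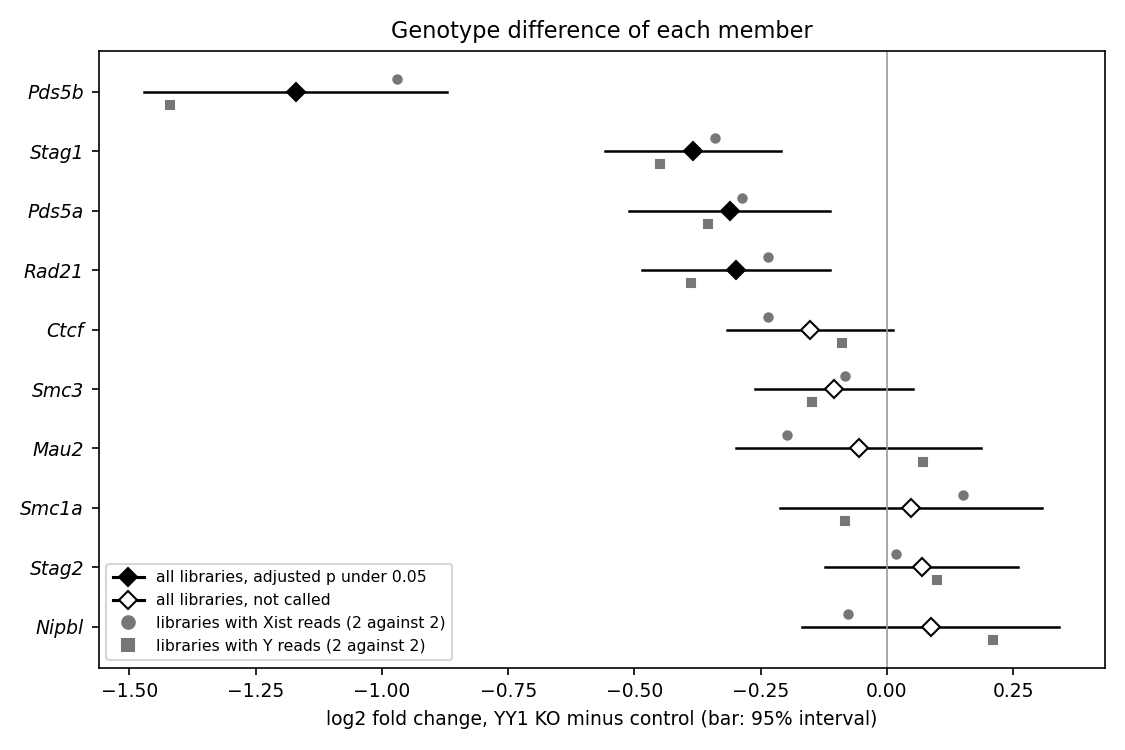
Log2 fold change (YY1 KO minus control) of each member, ordered by size; diamonds with 95% intervals are the fit over all 8 libraries (filled, adjusted p under 0.05), and grey points are fits over the libraries with Xist reads (circles) and with Y-linked reads (squares), 2 YY1 KO against 2 control hearts each. Pds5b, Stag1, Pds5a and Rad21 lie below 0 in both kinds of library, while Smc1a, Nipbl and Mau2 lie on either side of it.

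Within the libraries with Y-linked reads, which fit the stated sex, the log2 fold change was −1.42 for Pds5b (edgeR adjusted p = 0.00448), −0.45 for Stag1 (adjusted p = 0.04998), −0.39 for Rad21 (adjusted p = 0.0848) and −0.35 for Pds5a (adjusted p = 0.112). Within those with Xist reads it was −0.97, −0.34, −0.24 and −0.29 in the same order of genes. In the Xist libraries edgeR called 0 members and 0 of all 13671 genes tested, and at an unadjusted p under 0.05 it gave 1 member and 3451 genes. With a term for sex in the fit of all 8 libraries the same count of 4 members was lower, with Pds5b at −1.18 (adjusted p = 0.000810). The difference between the kinds of library in the genotype effect was not called by edgeR for any member or for any of the 13506 genes, at adjusted p = 0.812 for Pds5b, and 702 genes but 0 members had an unadjusted p under 0.05. The X-linked members also showed no called difference between libraries with Y-linked reads and those with Xist reads, at a log2 difference of −0.12 for Smc1a and 0.04 for Stag2 (Y-linked minus Xist, edgeR adjusted p = 0.9999 for each).

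Ratios of read counts within a library do not depend on the scaling. Of the 6 ratios examined, those of the 2 pairs of paralogues did not overlap between genotypes. No ratio passed the correction, which 2 ratios alone cannot pass with 4 against 4 hearts. The ratio of Stag2 to Stag1 reads was 2.05, 2.23, 2.14 and 1.92 in YY1 KO hearts and 1.47, 1.47, 1.52 and 1.63 in control hearts. All YY1 KO hearts stood above all control hearts, with a mean log2 difference of 0.46. The ratio of Pds5b to Pds5a reads was 0.501, 0.373, 0.410 and 0.605 in YY1 KO hearts and 0.842, 0.861, 0.787 and 0.929 in control hearts. These groups stood apart as well, with a mean log2 difference of −0.88. For both ratios the two-sided exact permutation test gave p = 0.0286, the smallest value that 4 against 4 hearts allow. After Benjamini-Hochberg adjustment over the 6 ratios examined it was 0.0857. With 2 of 6 ratios at the smallest value neither can pass, which is a limit of the design, and neither difference is called. Both ratios use the same reads as the Stag1 and Pds5b differences above and are not separate evidence. For Pds5b to Pds5a the exact permutation p was 0.0571 without control 1, 2 or 4.

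**Figure D3:**
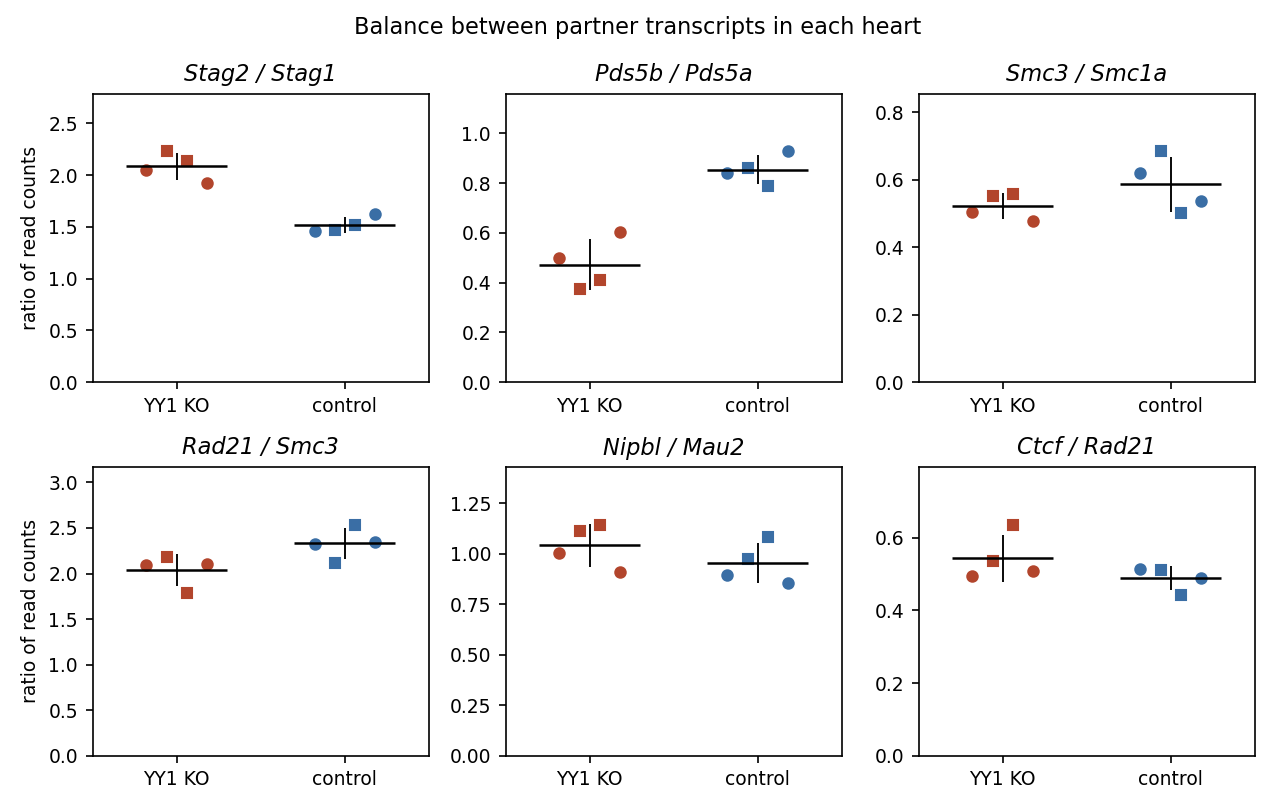
Ratio of the read counts of 6 pairs of partner transcripts (vertical axes from 0, not corrected for length) in each YY1 KO heart and each control heart; circles hold Xist reads, squares Y-linked reads, lines are means and bars ± SD. The genotypes stand apart for Stag2 to Stag1 and for Pds5b to Pds5a and overlap for the other 4 pairs.

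The other 4 ratios overlapped between genotypes. Rad21 to Smc3, the kleisin against an arm of the ring, averaged 2.04 ± 0.177 in YY1 KO hearts and 2.33 ± 0.173 in control hearts (SD, n = 4 each, exact permutation p = 0.0571, adjusted 0.114). Smc3 to Smc1a averaged 0.523 ± 0.0384 in YY1 KO hearts and 0.586 ± 0.0828 in control hearts (n = 4 each, exact permutation p = 0.257, adjusted 0.257). Nipbl to Mau2 averaged 1.04 ± 0.107 in YY1 KO hearts and 0.952 ± 0.0996 in control hearts (n = 4 each, exact permutation p = 0.257, adjusted 0.257). Ctcf to Rad21 averaged 0.543 ± 0.0642 in YY1 KO hearts and 0.489 ± 0.0324 in control hearts (n = 4 each, exact permutation p = 0.171, adjusted 0.257).

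Levels of different genes were compared per length, as RPKM (CPM per kilobase of the union of annotated exons). Rad21 was the most abundant member, at 24.9 ± 1.67 RPKM in YY1 KO hearts and 30.6 ± 1.76 RPKM in control hearts (SD, n = 4 each). Smc1a followed, at 17.2 ± 1.85 RPKM in YY1 KO hearts and 16.7 ± 2.05 RPKM in control hearts, then Ctcf at 11.7 ± 0.650 RPKM in YY1 KO hearts and 12.996 ± 0.555 RPKM in control hearts. Smc3 came next, at 9.32 ± 0.530 RPKM in YY1 KO hearts and 10.03 ± 0.172 RPKM in control hearts, and neighbours among these 4 did not overlap within a genotype. Stag2, Nipbl and Mau2 lay close together, at 6.13 to 7.10 RPKM on average in YY1 KO hearts and 5.83 to 6.76 RPKM in control hearts, and could not be ordered beyond their spread. Stag1 (2.39 ± 0.121 RPKM in YY1 KO hearts and 3.12 ± 0.147 RPKM in control hearts), Pds5a (1.74 ± 0.0892 RPKM in YY1 KO hearts and 2.16 ± 0.198 RPKM in control hearts) and Pds5b were the lowest. Pds5b took place 10 of 10 in YY1 KO hearts, at 1.60 ± 0.291 RPKM, where it overlapped Pds5a, and place 8 in control hearts, at 3.61 ± 0.254 RPKM. With the longest transcript as the length it took place 10 in YY1 KO hearts and place 9 in control hearts, where it overlapped Pds5a. That length also moved others. Mau2 stood at 10.4 RPKM in YY1 KO hearts and 10.8 RPKM in control hearts, overlapping Smc3 in both. Nipbl stood at 6.20 RPKM in YY1 KO hearts and 5.83 RPKM in control hearts, where it overlapped Stag1. In control hearts Smc1a overlapped Ctcf.

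The genes that release, acetylate or cleave cohesin were examined as a list of 9, all tested. By edgeR 0 rose and 0 fell, against 21.6% higher and 17.3% lower of all tested genes. At an unadjusted p under 0.05 edgeR, DESeq2 and limma-voom each gave 1 higher gene, the SMC3 deacetylase gene Hdac8. DESeq2 also gave 1 lower gene, the acetyltransferase gene Esco2. By edgeR 6576 of all 13506 tested genes passed that unadjusted threshold, in either direction. Hdac8, Esco2 and Wapl are named after their values were seen. Hdac8 stood at 6.12 ± 1.04 CPM in YY1 KO hearts and 4.46 ± 0.463 CPM in control hearts (SD, n = 4 each; log2 fold change 0.46 ± 0.17, edgeR adjusted p = 0.0597). Its groups did not overlap, with every YY1 KO heart above every control heart. The releasing factor gene Wapl, listed under its older symbol Wapal, stood at 60.4 ± 5.19 CPM in YY1 KO hearts and 55.97 ± 2.44 CPM in control hearts (log2 fold change 0.11 ± 0.082, edgeR adjusted p = 0.315).

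Of the 5 genes for germline cohesin subunits and the CTCF paralogue, 4 were too low to test and Ctcfl was called higher, at a log2 fold change of 3.52 ± 0.46 (edgeR adjusted p = 0.000813). This call cannot be assigned to Ctcfl. In the strand-resolved counts, 63, 115, 143 and 39 reads lay opposite to the gene in YY1 KO hearts and 0, 4, 5 and 8 in control hearts. On the annotated strand there were 0, 1, 4 and 2 reads in YY1 KO hearts and 6, 4, 2 and 1 in control hearts. The signal that differed between genotypes is therefore of the opposite strand, and the annotated transcript was near 0 in every heart. For the 10 members 1.56 to 4.81% of reads lay on the opposite strand.

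**Figure D4:**
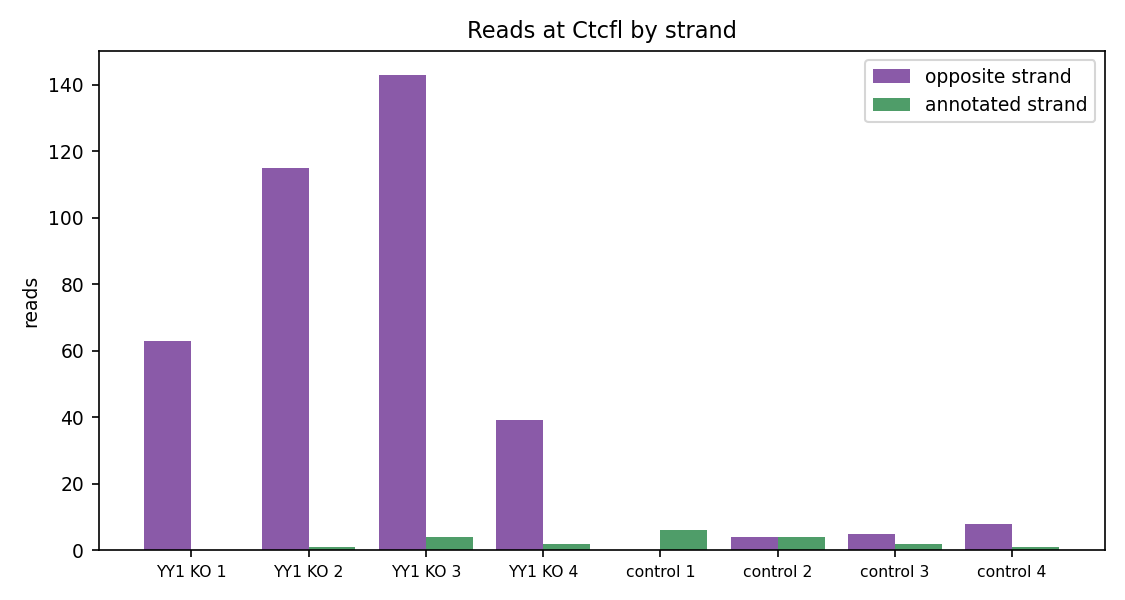
Reads counted at Ctcfl in each library, split into the strand opposite to the gene and the annotated strand (vertical axis in reads, from 0). The 4 YY1 KO hearts hold 39 to 143 opposite-strand reads and the 4 control hearts 0 to 8, and no heart holds more than 6 reads on the annotated strand.

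Condensin, the related ring that compacts chromosomes, had 2 of 8 tested genes lower and 0 higher, a share of 25.0% lower against 17.3% of all tested genes. Ncaph2, a subunit gene of condensin II, stood at 58.1 ± 2.68 CPM in YY1 KO hearts and 83.8 ± 4.47 CPM in control hearts (SD, n = 4 each; log2 fold change −0.53 ± 0.073, edgeR adjusted p = 0.000984). Ncapd2, of condensin I, stood at 26.9 ± 4.87 CPM in YY1 KO hearts and 46.7 ± 13.8 CPM in control hearts (log2 fold change −0.80 ± 0.21, edgeR adjusted p = 0.0176). Its groups overlapped, and the adjusted p was 0.0551 when YY1 KO 3 was left out. The markers of dividing cells, none of which was called, summed to 4.55 to 85.7 CPM in YY1 KO hearts and 13.3 to 259 CPM in control hearts. Their part in the Ncapd2 difference was not tested.

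In the SMC5/6 complex, the SMC ring of DNA repair, 3 of 8 tested genes rose and 1 fell, a share of 37.5% higher against 21.6% of all tested genes and of 12.5% lower against 17.3%. Nsmce4a, its kleisin gene, stood at 60.2 ± 7.99 CPM in YY1 KO hearts and 37.1 ± 5.65 CPM in control hearts (SD, n = 4 each; log2 fold change 0.70 ± 0.13, edgeR adjusted p = 0.00354). The SMC genes themselves rose less, Smc5 by 0.37 ± 0.096 (edgeR adjusted p = 0.0149) and Smc6 by 0.31 ± 0.10 (edgeR adjusted p = 0.0375) on the log2 scale. The Smc5 call was lost in 4 of 20 alternatives, among them leaving out control 2 (adjusted p = 0.0528), the libraries with Y-linked reads alone (adjusted p = 0.0818) and those with Xist reads alone (adjusted p = 0.280). The Smc6 call was lost in 13 of 20 alternatives, among them leaving out any library but YY1 KO 4. Fam178a, the recruiting factor gene also named Slf2, fell by 0.36 on the log2 scale (SE 0.094, edgeR adjusted p = 0.0163). The Fam178a call was lost in the libraries with Y-linked reads alone (adjusted p = 0.164) and in those with Xist reads alone (adjusted p = 0.182).

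Of 15 other looping and architectural genes, all tested, 5 fell and 1 rose. That is a share of 33.3% lower against 17.3% of all tested genes, and of 6.67% higher against 21.6%. The 5 lower genes include Yy1, the gene that was deleted, so the lower share is not one of other factors alone. Besides Yy1, these were the zinc finger genes Maz, at 62.3 ± 7.58 CPM in YY1 KO hearts and 95.4 ± 11.3 CPM in control hearts (SD, n = 4 each; log2 fold change −0.61 ± 0.12, edgeR adjusted p = 0.00370), and Patz1, at 12.3 ± 2.88 CPM in YY1 KO hearts and 20.04 ± 3.27 CPM in control hearts (log2 fold change −0.70 ± 0.18, edgeR adjusted p = 0.0133). MAZ is a factor known to act beside CTCF at loop ends. Satb1, for a chromatin organiser best known in T cells, fell by 0.53 on the log2 scale (SE 0.099, edgeR adjusted p = 0.00334). Named after their values were seen, Safb fell (−0.35 ± 0.089, edgeR adjusted p = 0.0141), and Chd8, for a remodeller that binds CTCF, rose by 0.23 ± 0.070 (edgeR adjusted p = 0.0293). The Chd8 call was lost when any library other than YY1 KO 4 was left out. Those of Patz1 and Safb were lost in the libraries with Y-linked reads alone (edgeR adjusted p = 0.141 and 0.128). They were also lost in the libraries with Xist reads alone (edgeR adjusted p = 0.114 and 0.208).

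**Figure D5:**
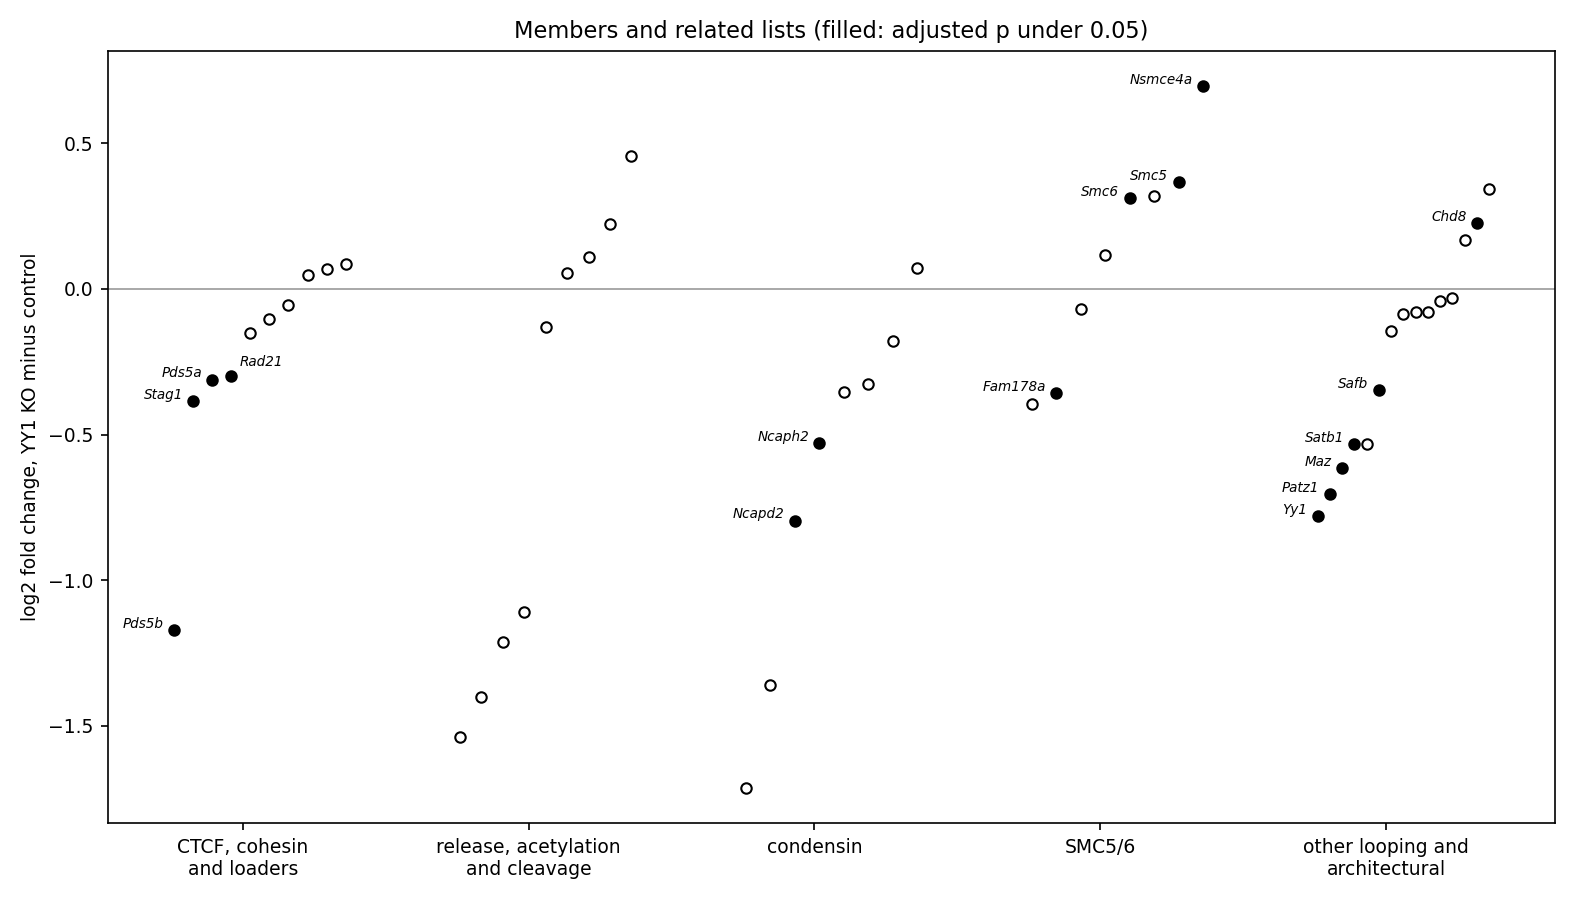
Log2 fold change (YY1 KO minus control, vertical axis) of the 10 members and of the tested genes of 4 related lists, sorted within each list; each point is 1 gene, filled and named where the adjusted p was under 0.05. Ctcfl is not drawn because its reads lie on the opposite strand; 4 members fell and 0 rose, and in SMC5/6 3 genes rose.

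Markers of other cell types moved with genotype beside these results. Summed levels of the 10 cardiomyocyte markers were 55966 to 80747 CPM in YY1 KO hearts and 91789 to 121119 CPM in control hearts, with 4 of 10 lower and 0 higher. The largest part of that sum was Myh6, which was not called (edgeR adjusted p = 0.117). The markers did not all move the same way. Actn2 had 3879 to 4681 CPM in YY1 KO hearts and 2938 to 3724 CPM in control hearts, and was not called (edgeR adjusted p = 0.128). The 8 endothelial markers summed to 1013 to 1196 CPM in YY1 KO hearts and 1312 to 1731 CPM in control hearts, with 5 lower and Vwf higher. The sums of fibroblast markers (1509 to 4508 CPM in YY1 KO hearts and 1362 to 4133 CPM in control hearts, 1 of 8 higher), of macrophage markers (304 to 412 CPM in YY1 KO hearts and 266 to 431 CPM in control hearts, 0 of 8 called) and of lymphocyte markers (5.77 to 14.4 CPM in YY1 KO hearts and 9.71 to 20.4 CPM in control hearts, 0 of 2 tested called) overlapped. The lymphocyte sum was mostly Ptprc, with Cd3e and Cd3g near 0. Smooth muscle and pericyte markers had 2 of 8 lower and 1 higher, their sum being mostly Des, which cardiomyocytes also express (8882 to 13414 CPM in YY1 KO hearts and 3192 to 4417 CPM in control hearts). The adipocyte list (342 to 471 CPM in YY1 KO hearts and 498 to 671 CPM in control hearts) was almost all Fabp4, which was lower, with Adipoq and Plin1 near 0, and the skeletal muscle list (61.5 to 440 CPM in YY1 KO hearts and 1265 to 1652 CPM in control hearts) was almost all Ckm, also lower, with Tnnt3 higher and Myh4 at 0; heart tissue itself expresses Fabp4 and Ckm. Of the erythroid list, the 4 globin genes were listed at 0 in every library, and its sum was 15.7 to 90.3 CPM in YY1 KO hearts and 15.8 to 33.2 CPM in control hearts. The part of these differences in the results on Pds5b, Stag1, Pds5a and Rad21 was not tested.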

How the data were processed

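Each heart has 1 deposited table of raw counts of reads for each gene symbol. Trimmomatic, STAR and the build mm10 are named in the submitters' processing notes, while versions, settings and annotation are not stated there. The deposited counts irrespective of strand were used, and the stranded counts served as an alternative. Reads not assigned to a single gene, 33.0 to 38.9% of all, were left out. They include reads in no gene (18.6 to 22.3% of all), reads mapped to several places and reads shared by genes. Groups were taken from the labels, which number separate mice.

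Genes were filtered with edgeR 4.0.16 (filterByExpr, minimum count 10, about 0.648 CPM, in 4 libraries) and tested over the whole table (TMM, robust quasi-likelihood F test, Benjamini-Hochberg, threshold 0.05). SE and 95% intervals follow from the F statistic. CPM use TMM-scaled library sizes, and RPKM the exons of GENCODE M21.

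The members and lists were chosen with earlier results of these data known. Named genes are the 10 members, Yy1, up to 4 called genes with the smallest p of each related list and the 5 genes most correlated with Ctcf. Those 5 were taken among tested genes without predicted-gene or clone names. Other genes are marked as named after their values were seen. Cell type marker lists are reported once each. Every pair of replicates differed by more than sampling noise (chi-square over its degrees of freedom 14.5 to 96.1). Alternatives were RLE, upper-quartile and library-size scaling, DESeq2 1.42.0, limma-voom (limma 3.58.1), 2 other filters, sense-strand counts, the mouse number as a block, a term for sex, each kind of library alone and each library left out. The test was also run on simulated counts in which few genes changed, unlike the 38.9% called here. No result is drawn from that run. Software was R 4.3.3 and Python 3.11.15, with figures from matplotlib 3.10.9.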

Additional observations from a re-analysis of the deposited data

Results flagged for a closer look

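Opposite-strand reads at Ctcfl, in a strand column that the comparisons do not use, came to 360 in the YY1 KO hearts together and 17 in the control hearts together, with every YY1 KO heart above every control heart.

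In 2 of 46 groups of 4 hearts 1 heart stood apart from the other 3 by Dixon's criterion, which chance alone gives in about 5% of groups. For Nipbl, control 2 stood high, at 57.8 CPM, where the other control hearts lay between 53.8 and 54.3 CPM. For Chd8, control 1 stood low, at 51.7 CPM, where the others lay between 54.9 and 55.3 CPM.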

How the results depend on the processing

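Pds5b kept its call under 19 of 20 alternatives (log2 fold change −1.42 to −0.97), Stag1 under 19 (−0.45 to −0.32), Pds5a under 16 and Rad21 under 15, and Ctcf, Smc3 and Stag2 were called under none. With library size alone 2 members were lower, as in the libraries with Y-linked reads (2), and in those with Xist reads 0 were, where also 0 genes of the related lists were lower and 0 higher and 0 of all genes were lower and 0 higher. The cause was not tested; the libraries with Y-linked reads, with as many hearts a genotype, gave 3336 calls, of which 1730 were higher, against 2911 higher over all libraries. Yy1 was at −0.76 in the Xist libraries (adjusted p = 0.116). The count of higher genes in the related lists, 5 over all libraries, was 3 with RLE scaling, without a filter, with sense-strand counts and in the libraries with Y-linked reads, and 2 to 6 with 1 library left out. The 5 genes include Ctcfl, whose call cannot be assigned to that gene and which was not tested in the sense-strand counts. The log2 fold change turned for Smc1a (−0.082 in the Y-linked libraries, −0.027 to 0.11 with 1 library left out), Nipbl (−0.077 in the Xist libraries, −0.027 to 0.15 with 1 left out) and Mau2 (0.0024 with library size alone, 0.071 in the Y-linked libraries); none of them was called in any fit. The log2 ratio of Stag2 to Stag1 was 0.36 in the Xist and 0.55 in the Y-linked libraries, and that of Pds5b to Pds5a −0.68 and −1.07, where 2 against 2 hearts cannot give an exact permutation p under 0.333. With 1 library left out the ratio of Pds5b to Pds5a was −1.01 to −0.77, above the threshold without control 1, 2 or 4 (exact permutation p = 0.0571), and that of Rad21 to Smc3 −0.24 to −0.13, with p = 0.0286 in an exact permutation test without control 2. With the longest transcript as length, 5 members changed place in the RPKM order of control hearts.

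The mouse numbers did not pair the hearts, since deviations of same-numbered hearts correlated at −0.46, 0.34, −0.06 and 0.27, and not every heart correlated best with its own number, though same-numbered hearts share the kind of library. With the replicate block 3 members and 8 genes of the related lists, Yy1 among them, were lower and 2 of the related lists higher. Rad21 had an edgeR adjusted p = 0.0624 and Smc5 an adjusted p = 0.0553, and over all genes 2210 were higher and 1816 lower. With the block as paired differences the log2 ratios of Stag2 to Stag1 (0.46) and Pds5b to Pds5a (−0.88) cannot pass, since 4 pairs give no exact permutation p under 0.125.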
